A study of Saccharina japonica with 9 samples.

Results

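Nuclear cytosine methylation was compared between female gametophytes (FG) and sporophytes (SP) of the kelp *Saccharina japonica*, with 3 whole-genome bisulfite sequencing (WGBS) libraries of each stage, which are 6 of the 9 libraries of the series. The cytosines compared are those in the authors' lists of methylated sites (mCs), and every site whose sequence name was not the chloroplast or the mitochondrion was taken as nuclear. The lists held 4493644, 3443506 and 5803035 nuclear mCs in FG1, FG2 and FG3, and 1702060, 684742 and 791198 in SP1, SP2 and SP3. For each site the lists give the scaffold, the strand, the sequence context and the methylated and unmethylated reads, and the quotient of methylated to total reads is called MLmc.

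All libraries came from strain Ye-c12 and from DNA of the entire body. The FG were haploid and 2 months old, and the study's methods say that they were taken from a sporophyte blade and multiplied as clones. The SP were diploid, 4 months old and raised from a cross of female and male gametophytes (MG) of the same strain. The study's methods say that they were collected at a blade length of about 3 cm. All samples therefore share 1 strain and every FG library comes from cloned material, so the libraries do not represent the variation among wild plants. The series also holds 3 MG libraries, whose values are given beside single scaffolds as a description.

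Kelps alternate between a microscopic haploid gametophyte, which forms eggs or sperm, and a large diploid sporophyte, which forms spores. Sex is expressed in the gametophyte and is set by a UV system, in which females carry a U and males a V chromosome and the sporophyte carries both. A methyl group on cytosine is read in the CpG, CHG and CHH contexts (H is A, C or T). In land plants, CpG and CHG methylation is copied to the new strand after replication by maintenance enzymes that recognise the symmetric motif, while CHH methylation has to be set anew. Bisulfite converts unmethylated cytosine so that it is read as thymine, and a cytosine that escapes conversion is counted as methylated.

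Precision is limited by depth, since the median coverage of an mC was 7, 7 and 9 reads in FG1, FG2 and FG3 and 9, 7 and 7 reads in SP1, SP2 and SP3. SP1 stood apart from SP2 and SP3 in the number, context and coverage of its mCs, so values are given with and without it. The lists hold no uncalled cytosines, and a stretch with no mC may therefore be either unmethylated or without reads. In DNA of whole plants, a methyl group in few cells and a low methylation in all cells cannot be told apart.

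The first comparison asked how many nuclear cytosines were listed as methylated in each stage. FG held 4580062 ± 1182136 (SD, n = 3) nuclear mCs and SP 1059333 ± 559157 (SD, n = 3), a ratio of 4.32. Every FG library lay above every SP library, and the difference reached the smallest p that 3 libraries against 3 allow (exact two-sided permutation test, p = 0.1). The FG mean was 2.69 times SP1 alone and 6.21 times the mean of SP2 and SP3. Relative to the reads mapped in each library, the numbers were 135506, 125029 and 166848 mCs per 1000000 mapped reads in FG, against 41799, 18708 and 21378 in SP. The ratio of FG to SP on that scale was 5.22, and 7.11 without SP1. As unscaled numbers, the stages overlapped where only mCs with a coverage of at least 10 reads were counted. FG2 (786159 mCs) then lay below SP1 (789097 mCs), and the ratio was 3.92 (exact permutation test, p = 0.2) and 8.65 without SP1. Per 1000000 mapped reads the stages did not overlap at this coverage, with 28544 mCs in FG2 and 19379 in SP1. The ratio on that scale was 4.71 (exact permutation test, p = 0.1).

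The excess in FG was unequal between the contexts. CpG mCs numbered 1044992, 790656 and 1292573 in FG and 459873, 404666 and 472540 in SP. For CpG, SP1 therefore lay between SP2 and SP3, and the ratio of FG to SP was 2.34 with SP1 and 2.38 without it. CHG mCs numbered 889114, 668764 and 1136720 in FG, against 333833, 83410 and 94296 in SP. The CHG ratio was 5.27, which rose to 10.1 without SP1. CHH mCs numbered 2559538, 1984086 and 3373742 in FG and 908354, 196666 and 224362 in SP, a ratio of 5.96, or 12.5 without SP1. In each context all FG libraries lay above all SP libraries (exact permutation test, p = 0.1 for each). Against SP1 alone the 3 contexts gave similar ratios, of 2.27 for CpG, 2.69 for CHG and 2.91 for CHH.

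Relative to the library's own nuclear total, CpG made up 23.3%, 23.0% and 22.3% of the mCs in FG, against 27.0%, 59.1% and 59.7% in SP. The CpG share was lower in every FG than in every SP library, with means of 22.8% ± 0.503 (SD, n = 3) and 48.6% ± 18.7 (SD, n = 3) (exact permutation test, p = 0.1, adjusted over the 3 contexts p = 0.15). SP1 lay close to the FG libraries, and SP2 and SP3 lay close to each other. CHG made up 19.8%, 19.4% and 19.6% in FG and 19.6%, 12.2% and 11.9% in SP, so that the stages overlapped through SP1 (exact permutation test, p = 0.3, adjusted p = 0.3). CHH made up 57.0%, 57.6% and 58.1% in FG, against 53.4%, 28.7% and 28.4% in SP, without overlap (exact permutation test, p = 0.1, adjusted p = 0.15). Without SP1 the mean CpG share of SP was 59.4% and the mean CHH share 28.5%, and none of the 3 contexts overlapped between the stages. With 3 libraries against 2, the smallest p of the exact permutation test is 0.2.

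**Figure D1:**
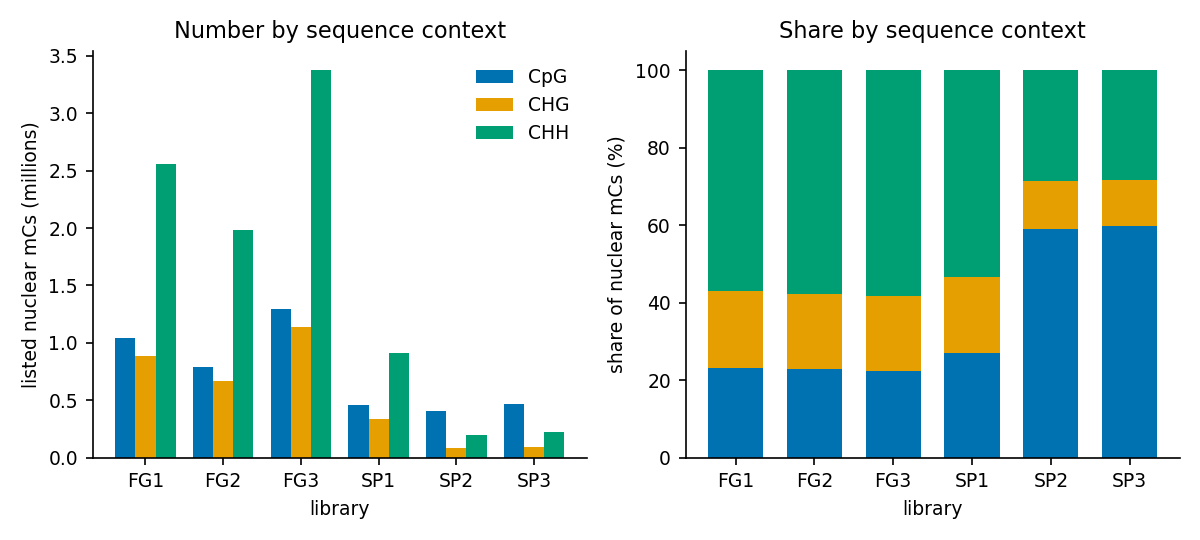
Listed nuclear mCs of each FG and SP library by sequence context, as numbers in units of 1000000 (left) and as the percent share of the library's nuclear mCs (right). Each bar is 1 library, so there are no error bars. CpG numbers of the 3 SP libraries lie between 404666 and 472540, while the CHG and CHH numbers of SP1 stand well above those of SP2 and SP3, and the CpG share is 27.0% in SP1 against 59.1% and 59.7% in SP2 and SP3.

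Coverage, the methylated plus unmethylated reads at a site, was examined next, because the depth at which a site could enter the list differed between contexts and libraries. Sites with 1 methylated read were listed up to a coverage of 16, 19 and 16 reads for CpG in FG1, FG2 and FG3, and up to 18 and 17 reads in SP2 and SP3. In SP1 the same limit was 67 reads. For CHH, sites with 1 methylated read were listed up to 74, 82 and 86 reads in FG and up to 73 and 74 reads in SP2 and SP3, against 288 reads in SP1. For CHG the limits were 75, 81 and 78 reads in FG, 73 and 71 reads in SP2 and SP3 and 284 reads in SP1. SP1 was thus listed under a more permissive limit than the other 5 libraries in all 3 contexts, and its part in the difference between SP1 and the other SP libraries was not tested.

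Within a coverage of 5 to 16 reads, where each of the 6 libraries listed sites with 1 methylated read in each context, the comparison changed little. This range was chosen after the limits had been seen. The ratio of FG to SP was 4.35 for all mCs, 2.40 for CpG, 5.34 for CHG and 6.03 for CHH. The CpG share in this range was 24.3%, 23.8% and 23.9% in FG and 27.3%, 60.3% and 61.2% in SP. Above the CpG limit the composition differed. At 21 to 50 reads, CpG made up 2.64%, 2.14% and 2.41% of the mCs in FG, 27.6% in SP1 and 6.64% and 7.17% in SP2 and SP3. The number of CpG mCs in that class was 3349, 2061 and 4897 in FG, against 20365 in SP1 and 753 and 1000 in SP2 and SP3, so that SP1 alone exceeded every FG library there.

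FG exceeded SP in number at every class of coverage. At 5 to 8 reads there were 2862313, 2333597 and 2711381 mCs in FG and 723205, 476836 and 517199 in SP, a ratio of 4.60 (exact permutation test, p = 0.1). The ratio was 4.05 at 9 to 12 reads and 4.31 at 21 to 50 reads, also without overlap. It was 3.83 at 13 to 20 reads and 3.30 above 50 reads, where the libraries overlapped because of SP1 (exact permutation test, p = 0.2 for both). Relative to the library total, the share of mCs at 5 to 8 reads was 63.7%, 67.8% and 46.7% in FG and 42.5%, 69.6% and 65.4% in SP (exact permutation test, p = 1). The share overlapped between the stages in all 5 classes. FG3 and SP1, which had the lowest shares of shallow mCs, also had the higher mean coverages, of 11.3 and 12.9 reads per mC, against 8.57 to 9.70 reads in the other 4 libraries.

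**Figure D2:**
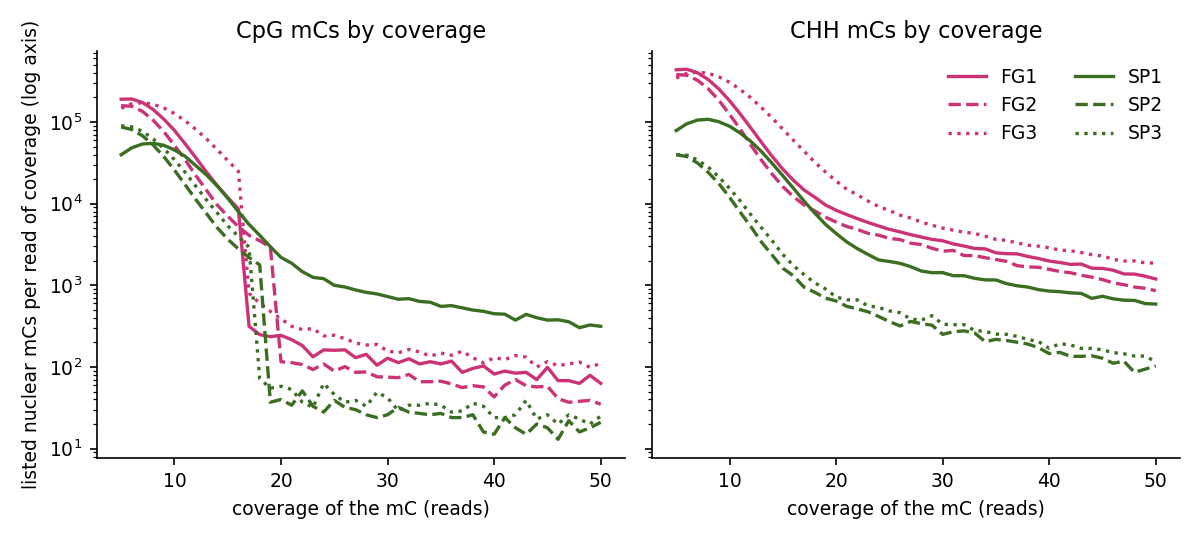
Number of listed CpG (left) and CHH (right) mCs at each coverage from 5 to 50 reads in the FG and SP libraries (log axis). The CpG curves of FG and of SP2 and SP3 drop at 16 to 19 reads, where sites with 1 methylated read ceased to be listed, whereas that of SP1 continues, and the CHH curves have no such drop in this range.

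Few mCs had more than 1 methylated read in either stage, but the share was higher in FG. mCs with at least 2 methylated reads made up 2.92%, 2.37% and 3.22% of the list in FG and 1.30%, 1.31% and 1.42% in SP. The stages did not overlap, and the ratio of the means was 2.11 (exact permutation test, p = 0.1). Over all coverages SP1 lay with SP2 and SP3, but at a coverage of at least 10 reads it stood apart, with 1.69% against 3.104% and 3.113% in SP2 and SP3 and 5.82%, 5.16% and 5.04% in FG. The stages also did not overlap at 5 to 8 reads, with 1.78%, 1.47% and 1.75% in FG and 0.998%, 0.788% and 0.814% in SP. When mCs with at least 2 methylated reads alone were counted, FG held 131153, 81631 and 186594 and SP 22136, 8978 and 11260, a ratio of 9.43. By context that ratio was 4.69 for CpG, 11.9 for CHG and 13.5 for CHH.

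The mean level of the listed sites overlapped between the stages when sites of all coverages were taken. The mean MLmc was 0.138, 0.141 and 0.122 in FG and 0.118, 0.142 and 0.138 in SP (exact permutation test, p = 1). For a site with 1 methylated read the level is set by its coverage, and at 5 to 8 reads the mean was 0.164, 0.165 and 0.161 in FG and 0.161, 0.165 and 0.163 in SP. CpG sites gave 0.142, 0.145 and 0.128 in FG and 0.117, 0.145 and 0.141 in SP (exact permutation test, p = 0.7). At a coverage of at least 10 reads the CpG means did not overlap, with 0.0898, 0.0880 and 0.0885 in FG and 0.0790, 0.0871 and 0.0874 in SP (exact permutation test, p = 0.1). This range includes coverages where only some libraries listed CpG sites with 1 methylated read. At 5 to 16 reads the CpG means overlapped, with 0.143, 0.146 and 0.128 in FG and 0.124, 0.146 and 0.142 in SP (exact permutation test, p = 0.6). The CHG and CHH means overlapped at a coverage of at least 10 reads (exact permutation test, p = 0.2 for both).

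Sites with an MLmc of at least 0.5 were few and unevenly spread. They numbered 2731, 2625 and 9171 in FG, 7717 in SP1 and 26 and 22 in SP2 and SP3 (exact permutation test, p = 0.5). FG exceeded SP2 and SP3 by a ratio of means of 202, but SP1 lay between FG1 and FG3. In FG and in SP1 such sites lay together. In FG 85.7%, 92.2% and 97.8% and in SP1 99.2% of them were in runs of at least 5 sites with gaps of at most 150 bases, against 0% in SP2 and SP3. They were found on 356, 196 and 214 scaffolds in FG and on 78 in SP1, and the 50 scaffolds richest in them held 88.4%, 94.4% and 98.2% of the sites in FG and 99.5% in SP1.

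The 5 scaffolds richest in such sites in SP1 were short, with a last listed mC at base 1113 to 5352. The scaffold with the most such sites in SP1, scaffold5821, held 486 of them there, 388 in FG1 and 151 in FG2, and 0 in FG3, SP2 and SP3. Its listed mCs extended to base 5352, and each mC listed on it had an MLmc of at least 0.5. On scaffold9758, whose last mC was at base 1113, the numbers were 384, 301 and 0 in FG and 396, 0 and 0 in SP. In FG3, 4051 of the 9171 sites were on scaffold2215, which is described below with the scaffolds. Both short scaffolds held sites in some libraries of a stage and none in others.

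Symmetric methylation was counted as the share of mCs whose partner cytosine on the opposite strand of the same motif was also listed (a dyad). For CpG this was 2.26%, 1.75% and 2.68% in FG and 1.21%, 0.926% and 1.09% in SP (exact permutation test, p = 0.1). For CHG it was 2.39%, 1.85% and 2.78% in FG, 1.06% in SP1 and 0.235% and 0.227% in SP2 and SP3 (exact permutation test, p = 0.1). Both shares were higher in every FG library. They also moved with the number of listed sites. Divided by the number of listed mCs of the context, the CpG share was 0.216, 0.222 and 0.207 percentage points per 100000 mCs in FG and 0.263, 0.229 and 0.230 in SP, so that FG was then the lower stage (exact permutation test, p = 0.1). For CHG it was 0.269, 0.277 and 0.244 in FG and 0.316, 0.282 and 0.241 in SP, which overlapped (exact permutation test, p = 0.5). In all 6 libraries, fewer than 3% of the CpG or CHG mCs had a listed partner.

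**Figure D3:**
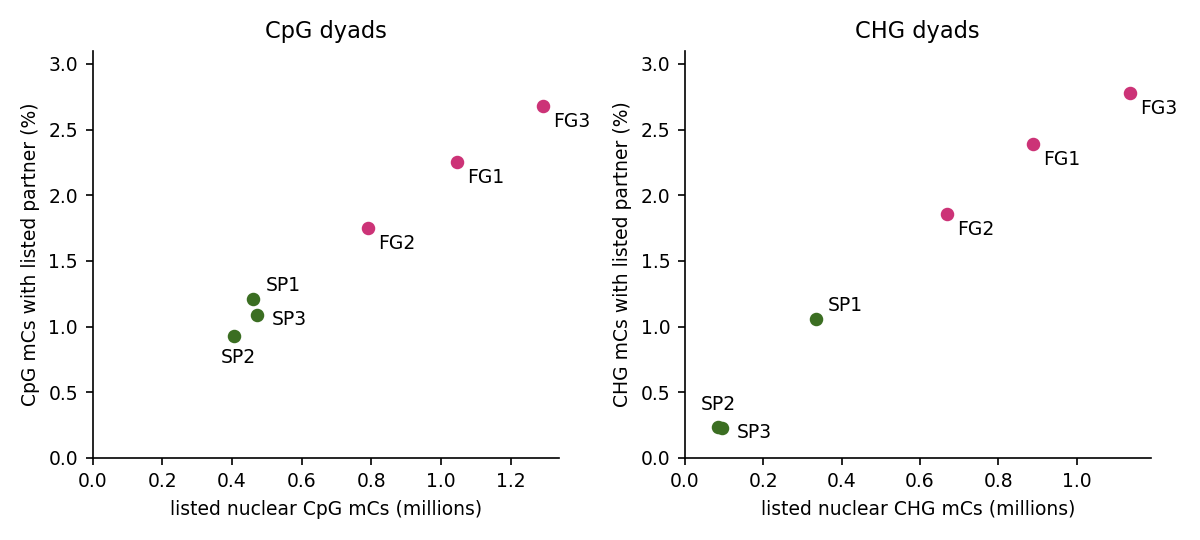
Share of listed CpG (left) and CHG (right) mCs whose partner on the opposite strand was also listed, against the number of listed mCs of that context in units of 1000000. Each point is 1 library, and the FG libraries, with more listed sites, lie above the SP libraries in both contexts, while the SP libraries among themselves do not follow their numbers strictly. For CpG the share runs from 0.926% in SP2 to 2.68% in FG3.

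mCs also lay closer to each other in FG, where more were listed. Another mC within 50 bases on the same strand was found for 58.6%, 50.9% and 61.4% of the mCs in FG and for 27.3%, 15.9% and 16.8% in SP. On the opposite strand the shares were 39.9%, 34.1% and 47.3% in FG and 20.7%, 9.48% and 10.7% in SP (exact permutation test, p = 0.1 for both strands). A neighbour was found more often on the same strand in all 6 libraries. The ratio of same to opposite strand was 1.47, 1.49 and 1.30 in FG and 1.32, 1.67 and 1.57 in SP, and it did not separate the stages (exact permutation test, p = 0.4).

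Single sites recurred rarely. Of 13256942 distinct sites listed in FG, 13316 (0.1004%) were listed in all 3 FG libraries, and of 3149303 in SP, 268 (0.00851%) were listed in all 3 SP libraries. Sites listed in all 6 libraries numbered 27. Of the mCs of FG2, 4.66% were also listed in FG3 and 0.498% in SP2, and of those of SP2, 3.90% were listed in FG3 and 1.57% in SP3. An SP2 site was thus found more often in FG3, the longest list, than in the other SP libraries. Of the 13316 recurrent FG sites, 11.6% were listed in at least 1 SP library, and of the 268 recurrent SP sites, 40.7% were listed in at least 1 FG library. These shares are a description, since the lists differ in length and depth.

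The excess in FG was spread over nearly all scaffolds. The number of mCs per scaffold was compared with edgeR's quasi-likelihood test, first relative to the mapped reads of each library. Of 5221 scaffolds with at least 60 mCs over the 6 libraries, which held 99.5% of the mCs, 5126 (98.2%) were higher and 20 (0.383%) lower in FG at a Benjamini-Hochberg adjusted p below 0.05. The median log2 difference was 2.39, and 5% of the scaffolds lay below 1.72 and 5% above 2.92. The libraries of the stages did not overlap on 5103 (97.7%) of the scaffolds. Of the 20 lower scaffolds, 13 had no mC in SP2 and SP3, and 7 had mCs in all SP libraries. Without SP1, 5050 of 5063 tested scaffolds (99.7%) were higher and 3 (0.0593%) lower. With edgeR's TMM scaling, which takes out the shift common to most scaffolds, 77 were higher and 205 lower.

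Relative to the nuclear total of each library, most scaffolds differed between the stages by less than 0.5 on the log2 scale. The median log2 difference was 0.01, and 4511 scaffolds (86.4%) lay within 0.5 of 0 in either direction. The test called 94 scaffolds (1.8%) higher and 186 (3.56%) lower in FG, and the libraries of the stages did not overlap on 1338 (25.6%). The median log2 difference of the 94 higher scaffolds was 0.32, so calls also fell within 0.5 of 0, and equality of shares was not tested. Without SP1, 202 (3.99%) of 5063 were higher and 225 (4.44%) lower. The number of higher scaffolds fell to 32 without FG1, 44 without FG3, 37 without SP2 and 38 without SP3. Among the 94 higher scaffolds 73, and among the 186 lower scaffolds 155 of the 172 that could be tested, were called in the same direction without SP1. The lower scaffolds showed the larger differences, with 73 lower by over 2-fold against 9 higher by over 2-fold. Of the 9, 4 were called higher again without SP1, and of the 73, 59 could be tested and 52 were called lower again.

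**Figure D4:**
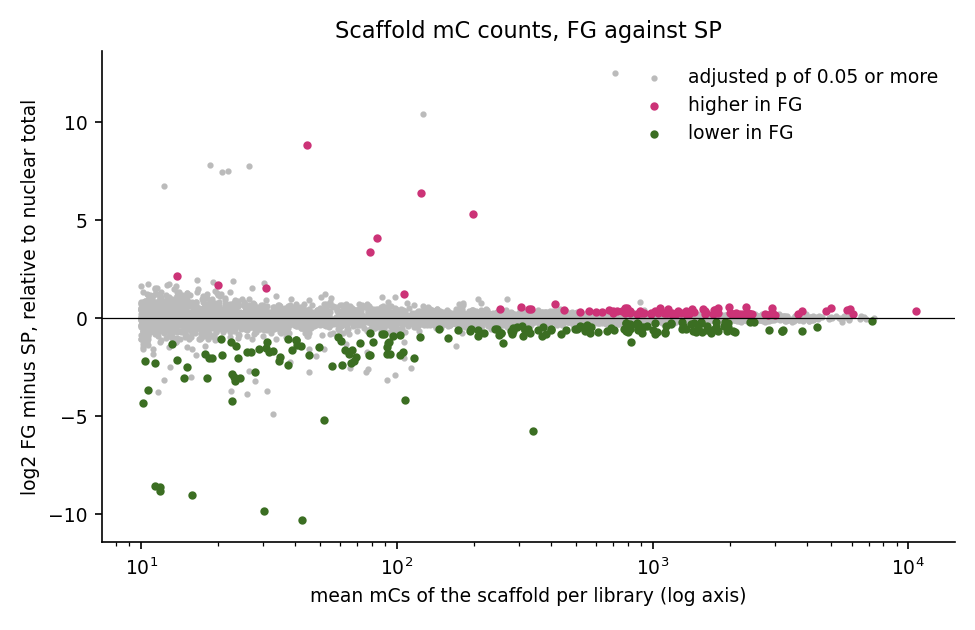
Difference of FG and SP (log2, relative to the nuclear mC total of each library) against the mean number of mCs per library (log axis) for the 5221 scaffolds tested. Scaffolds with an adjusted p below 0.05 from edgeR are coloured, 94 higher and 186 lower in FG, and the remaining points lie mostly within 0.5 of 0.

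The contexts were also fitted one by one, each relative to the library's own total in that context. In CpG 59 (1.56%) of 3781 scaffolds were higher and 122 (3.23%) lower in FG. In CHG 28 (0.765%) of 3659 were higher and 81 (2.21%) lower, and in CHH 64 (1.42%) of 4508 were higher and 140 (3.11%) lower. The scaffolds called over all contexts were chosen from the sum of the same context counts. Their directions by context are therefore a description. Of the 186, 151 could be tested in CpG and 107 were called lower, 72 of 140 were called lower in CHG and 128 of 171 in CHH, and none was called higher in any context. Of the 94 higher scaffolds, 29 of 86 were called higher in CpG and 1 lower, 24 of 90 were called higher in CHG and 49 of 94 in CHH.

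The largest called falls were examined by library. Scaffold1304 held 33, 45 and 66 mCs in FG, 1216, 341 and 337 in SP and 4728, 5054 and 4571 in MG. Per 100000 nuclear mCs this was 0.734, 1.31 and 1.14 in FG, 71.4, 49.8 and 42.6 in SP and 93.7, 96.0 and 73.1 in MG. FG thus lay far below SP, although its lists were longer, and the relative log2 difference was -5.73 (adjusted p = 9.66e-08 from edgeR) and -5.45 without SP1 (adjusted p = 7.66e-10). It was lower in CpG (-5.14), CHG (-6.06) and CHH (-6.23), each with an adjusted p of at most 1.13e-05 from edgeR. The mCs of scaffold1304 lay in 5, 6 and 5 of its 13 bins of 10 kb in FG and in 13, 12 and 13 bins in SP. Its mCs were covered by 10.2, 7.82 and 11.03 reads in FG and by 40.2, 25.5 and 25.8 reads in SP, and relative to the whole library the log2 difference of coverage was -1.66 (adjusted p = 6.33e-07 from limma). The part of coverage in the difference was not tested. Among mCs with a coverage of 5 to 8 reads the relative log2 difference was smaller, -2.79, and still called (adjusted p = 0.00648 from edgeR). Relative to mapped reads, the difference was -3.41 over all mCs and -0.37 at 5 to 8 reads, where it was not called (adjusted p = 0.419).

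Scaffold3334 gave the same order, with 9, 6 and 17 mCs in FG, 158, 58 and 63 in SP and 936, 1023 and 855 in MG. Its relative log2 difference was -5.21 (adjusted p = 4.68e-07 from edgeR), and -5.14 without SP1. Scaffold3334 reached the minimum number of mCs for testing through SP alone, so its call is a description. Scaffold2172 held 39, 30 and 54 mCs in FG, 287, 119 and 114 in SP and 1583, 1669 and 1294 in MG. The relative log2 difference was -4.18 (adjusted p = 6.43e-08) and was called in CpG, CHG and CHH. On both scaffolds SP mCs were more deeply covered, by 15.7 to 28.4 reads in SP against 7.37 to 15.1 reads in FG.

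Scaffold1689 held 5, 5 and 14 mCs in FG, 77, 19 and 16 in SP and 1010, 1019 and 1235 in MG. Its log2 difference was -4.20 (adjusted p = 9.13e-05 from edgeR), and too few mCs were left to test it without SP1. Scaffold1552 held 11, 19 and 13 mCs in FG, 51, 24 and 22 in SP and 977, 1002 and 1159 in MG, with a log2 difference of -3.22 (adjusted p = 0.000193) and of -3.25 without SP1. Relative to mapped reads, the difference of scaffold1552 was -0.86 and not called (adjusted p = 0.096 from edgeR). The mCs of both were shallowly covered in every library. Scaffold1689 had means of 6.2, 6 and 9.36 reads in FG and 6.34, 5.37 and 6.5 in SP, which overlapped. Scaffold1552 had 7.73, 8.32 and 8.77 reads in FG and 6.43, 5.58 and 5.77 in SP. In FG the mCs of scaffold1552 lay in 3, 3 and 4 of its 11 bins, against 11, 10 and 10 in SP. With all libraries, scaffold1689 and scaffold1552 reached the minimum number of mCs for testing through SP alone, so their calls are a description.

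Scaffold5226 had 0 mCs in all FG libraries, 56, 5 and 10 in SP and 7, 21 and 17 in MG. Against a floor of 3 mCs over the 3 FG libraries, its relative level was at least 102-fold lower in FG. SP1 held most of its mCs, and the bound was 46.5-fold without SP1 and 59.1-fold without FG3. Scaffold5226 reached the minimum number of mCs for testing through SP alone, so its call is a description. Too few mCs were left to test scaffold5226 without SP1. Of its mCs 16, 2 and 3 in SP had an MLmc of at least 0.5. A further 5 called scaffolds (scaffold9072, scaffold10700, scaffold12251, scaffold13352 and scaffold15234) had mCs in SP1 alone, from 68 to 255, and their calls rest on that library.

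The longest scaffolds lower in FG by over 2-fold relative to the nuclear total changed by smaller factors than scaffold1304. The 3 longest of those lower by over 2-fold, chosen after their values had been seen, were scaffold378, scaffold477 and scaffold788. Scaffold378, with mCs up to base 343152, held 126, 97 and 119 mCs in FG and 221, 66 and 68 in SP, but 3333, 3624 and 4152 in MG. Per 100000 nuclear mCs these were 2.80, 2.82 and 2.05 in FG, 12.98, 9.64 and 8.59 in SP and 66.1, 68.8 and 66.4 in MG, a log2 difference of -2.05 (adjusted p = 0.000108 from edgeR) and of -1.84 without SP1. FG mCs were found in 11, 9 and 12 of its 35 bins, SP mCs in 34, 28 and 29 and MG mCs in each of the 35. In the bins that held them, FG mCs were deeply covered, by 26.1, 24.8 and 30.8 reads, against 19.6, 10.4 and 9.51 reads in SP. Among mCs with a coverage of at least 10 reads the difference was -0.29 (adjusted p = 0.838), while at 5 to 8 reads it was -3.60 (adjusted p = 0.000596).

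Scaffold477 held 315, 308 and 373 mCs in FG, 323, 136 and 109 in SP and 3211, 3232 and 3710 in MG, with a log2 difference of -1.25 (adjusted p = 0.000396 from edgeR). Scaffold788 held 73, 65 and 102 mCs in FG, 156, 37 and 36 in SP and 2165, 2140 and 2731 in MG, with a log2 difference of -1.89 (adjusted p = 0.000773). Each of the 3 was lower in CpG, CHG and CHH. At a coverage of at least 10 reads they were no longer called, with differences of -0.25 for scaffold477 and -0.01 for scaffold788 (adjusted p = 0.842 and 0.999 from edgeR). At 5 to 8 reads the differences were larger, -2.66 for scaffold477 and -3.59 for scaffold788 (adjusted p = 0.000596 and 0.00179). Relative to mapped reads, none of the 3 was lower in FG over all mCs. The log2 differences were then 0.24 for scaffold378, 1.10 for scaffold477 and 0.36 for scaffold788 (adjusted p = 0.601, 0.0108 and 0.452 from edgeR). Without SP1 they were 0.97, 1.65 and 1.33, each called higher in FG.

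**Figure D5:**
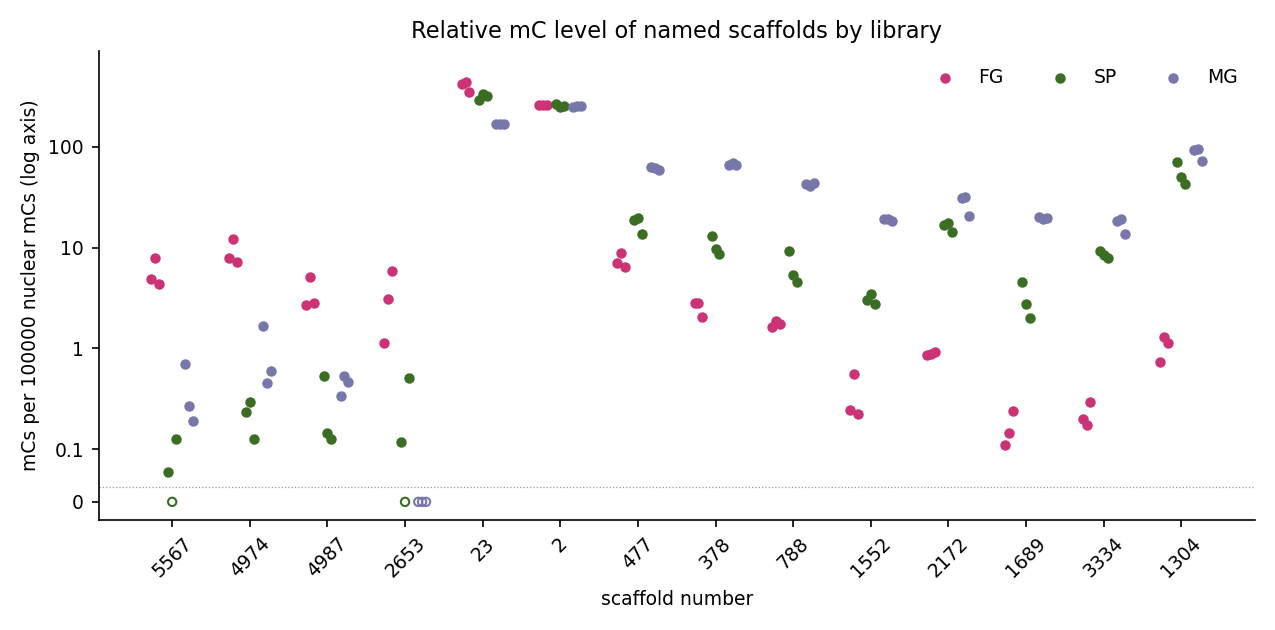
mCs of named scaffolds per 100000 nuclear mCs of the library (log axis) in FG, SP and MG, 1 point per library and open circles for libraries with 0 mCs. On scaffold1304, for example, FG lies between 0.734 and 1.31, SP between 42.6 and 71.4 and MG between 73.1 and 96.0, while on scaffold2 all libraries lie between 247 and 265.

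Together the 73 scaffolds lower by over 2-fold held 0.0991%, 0.104% and 0.0925% of the nuclear mCs in FG, 0.483%, 0.362% and 0.336% in SP and 1.23%, 1.23% and 1.14% in MG. The FG and SP values chose these scaffolds and are a description. SP lay between FG and MG. Of the 73 scaffolds 59 could be tested without SP1 and 52 of them were called lower again. Their mCs fell in 577 bins of 10 kb, of which 289, 277 and 313 held an mC in FG, 570, 474 and 500 in SP and 573, 572 and 572 in MG. Over all bins the share with an mC was 97.6%, 97.3% and 98.2% in FG and 97.7%, 94.6% and 95.2% in SP, against 50.1%, 48.0% and 54.2% in FG and 98.8%, 82.1% and 86.7% in SP on these scaffolds.

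Over all scaffolds, 58674 bins of 10 kb held an mC in at least 1 of the 6 libraries, and 53987 held mCs in each of them. Bins with mCs in all SP and no FG library numbered 201, on 91 scaffolds, and 122 of them were on the 73 scaffolds lower by over 2-fold. Those 73 were chosen by their low FG counts against SP, so the number 122 is a description. Of these 201 bins, 200 (99.5%) had mCs in all 3 MG libraries, as did 57391 (97.8%) of all 58674 bins. The median number of mCs in MG1, MG2 and MG3 was 98, 105 and 121 in these bins and 86, 91 and 109 over all bins. The median over the SP libraries combined was 11 mCs. Bins with mCs in all FG and no SP library numbered 204, with a median of 9 mCs over the FG libraries combined. The numbers 201 and 204 were close although FG lists were longer, but both require mCs in all libraries of the other stage. Single libraries held mCs in 57286, 57104 and 57623 bins in FG and in 57332, 55498 and 55874 in SP. Among scaffolds, 652 had mCs in FG and in no SP library, against 195 with mCs in SP and in no FG library.

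None of the 9 scaffolds higher in FG by over 2-fold had an mC beyond 50 kb. Scaffold5567, with mCs up to base 6132, held 221, 269 and 254 mCs in FG, 1, 0 and 1 in SP and 35, 14 and 12 in MG. Its relative log2 difference was 6.40 (adjusted p = 2.98e-05 from edgeR) and 6.30 without SP1 (adjusted p = 0.000129), and it was called in CpG, CHG and CHH. Scaffold4974, with mCs up to base 8364, held 356, 419 and 414 mCs in FG, 4, 2 and 1 in SP and 85, 24 and 37 in MG. Its log2 difference was 5.33 (adjusted p = 1.70e-05) and was called in CHG and CHH. At a coverage of 5 to 16 reads it was 1.51 and not called (adjusted p = 0.297). The FG mCs of both were deeply covered, by 22.7 to 33.3 reads, and were mostly CHH (65.9% and 64.0%), with a CpG share of 9.27% and 4.71%. Both scaffolds reached the minimum number of mCs for testing through FG alone, so their calls are a description.

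Scaffold4987 held 120, 177 and 165 mCs in FG, 9, 1 and 1 in SP and 17, 28 and 29 in MG, with a log2 difference of 3.40 (adjusted p = 0.00072 from edgeR) that was 4.65 without SP1 (adjusted p = 0.000727). Scaffold2653 held 51, 106 and 338 mCs in FG, 2, 0 and 4 in SP and 0 in all MG libraries. Its log2 difference of 4.10 (adjusted p = 0.011) was no longer called without SP1 (3.63, adjusted p = 0.0502) or without SP2 (adjusted p = 0.0643). Scaffold5926 held 18, 133 and 115 mCs in FG, 0 in SP and 4, 5 and 3 in MG, at least 20.5-fold higher in FG against a floor of 3 mCs over the SP libraries, a bound that was 9.52-fold without SP1. Scaffold5926 reached the minimum number of mCs for testing through FG alone, so its call (adjusted p = 0.0317 from edgeR) is a description. The call on scaffold5926 was lost without SP1 (adjusted p = 0.0582). It was also lost when FG2, FG3, SP2 or SP3 was left out (adjusted p = 0.0603, 0.0636, 0.101 and 0.116). Scaffold13505 held 24, 26 and 29 mCs in FG, 2, 1 and 1 in SP and 32, 29 and 20 in MG, a log2 difference of 2.18 (adjusted p = 0.0327 from edgeR). It was not called without SP1, SP2 or SP3 (adjusted p = 0.0838, 0.0889 and 0.0998), and too few mCs were left to test it without any 1 FG library. Scaffold4987, scaffold2653 and scaffold13505 also reached the minimum number of mCs through FG alone, so their calls are a description.

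The longest scaffolds with a relative rise of over 0.5 on the log2 scale, chosen after their values had been seen, were scaffold146, scaffold392 and scaffold711. Scaffold146, with mCs up to base 518123, held 199, 205 and 169 mCs per 100000 nuclear mCs in FG, 122, 145 and 137 in SP and 77.4, 77.6 and 82.7 in MG. Its log2 difference was 0.52 (adjusted p = 0.00197 from edgeR) and 0.44 without SP1. Scaffold392 gave 114, 121 and 101 in FG and 74.3, 82.2 and 77.6 in SP, a log2 difference of 0.53 (adjusted p = 0.000654). Scaffold711 gave 93.8, 93.4 and 79.3 in FG and 55.6, 61.9 and 60.5 in SP, a log2 difference of 0.59 (adjusted p = 0.000475). The rises were called in CHG and CHH and not in CpG. They reversed at a coverage of 5 to 8 reads, where the differences were -0.30, -0.12 and -0.38 and none was called (adjusted p = 0.999 for each).

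The calls depended on the coverage of the mCs counted. Of the 94 higher scaffolds, 89 could be tested at 5 to 8 reads, 67 of them kept their direction and 1 was called, with a median log2 difference of 0.11. Of the 186 lower scaffolds, 167 could be tested, 126 kept their direction and 49 were called, with a median of -0.15. At a coverage of at least 10 reads the medians were 0.59 and -1.20, against 0.32 and -0.76 over all mCs. The mean coverage of the mCs, relative to the whole library, was called higher in FG on 44 (1.18%) and lower on 33 (0.883%) of 3739 scaffolds with limma, and without SP1 on 113 (3.02%) and 541 (14.5%). Of the lower scaffolds 162 had such a value and 42 were called, 17 with a lower and 25 with a higher coverage in FG. Of the higher scaffolds 85 had a value and 3 were called, each with a higher coverage in FG.

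Relative to mapped reads, the largest named rises were on scaffolds without any mC in SP. Scaffold2215 held 10, 182 and 4067 mCs in FG and 0 in SP, at least 1700-fold higher in FG against a floor of 3 mCs over SP (adjusted p = 6.23e-41 from edgeR). In MG it held 0, 0 and 268 mCs. Nearly all of its sites were of high level, since 182 in FG2 and 4051 in FG3 had an MLmc of at least 0.5. FG3 held most of its mCs, and without FG3 the bound was 121-fold. It was 1094-fold without SP1 and 2598-fold without FG1. Relative to the nuclear total the rise was not called (adjusted p = 0.18). Scaffold3828 held 7, 449 and 304 mCs in FG and 0 in SP and in MG, at least 303-fold higher (adjusted p = 4.75e-31). This bound was 174-fold without FG2, 195-fold without SP1 and 460.5-fold without FG1. Scaffold3828 was not called relative to the nuclear total (adjusted p = 0.0801). Scaffold2215 and scaffold3828 reached the minimum number of mCs for testing through FG alone. Their adjusted p-values relative to mapped reads are therefore a description, and their mCs differed widely between the FG libraries.

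The 4 scaffolds with the most mCs differed little once the library totals were taken out. Scaffold23 held 18734, 15328 and 20496 mCs in FG and 4977, 2277 and 2515 in SP, which were 417, 445 and 353 per 100000 nuclear mCs in FG and 292, 333 and 318 in SP. Its log2 difference of 0.37 was called (adjusted p = 0.0158 from edgeR), but not without FG1, FG2 or SP3 (adjusted p = 0.0726, 0.0603 and 0.0731), and at a coverage of 5 to 8 reads the difference was -0.43 (adjusted p = 0.999). Scaffold2 gave 260, 262 and 262 in FG and 265, 247 and 256 in SP, a log2 difference of 0.03 (adjusted p = 0.78). Scaffold7 gave 236, 247 and 242 in FG and 245, 238 and 262 in SP, a log2 difference of -0.04 (adjusted p = 0.689). Scaffold11 gave 247, 257 and 253 in FG and 273, 293 and 278 in SP, a log2 difference of -0.15 (adjusted p = 0.0373). The call on scaffold11 was kept without SP1 (adjusted p = 0.00938) and lost when any of the other 5 libraries was left out (adjusted p from 0.0704 to 0.155).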

How the data were processed

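WGBS lists of 6 libraries were used, and 3 further ones as a description. The authors aligned the reads with Bismark and deposited, for each listed cytosine, its methylated and unmethylated read counts, unnormalized and not pooled. The deposited fraction is MLmc. The test behind the deposited p-value columns and the assembly's build are not given in the sources used here. In every file the lowest coverage was 5 reads, the fewest methylated reads were 1, and each corrected p-value was below 0.05.

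Nuclear sites were counted by context, coverage class and scaffold. Library values were compared with exact two-sided permutation tests, whose p-values, like all others, measure the spread between these libraries. Scaffold counts were fitted with edgeR 4.0.16 (quasi-likelihood test, at least 60 mCs over the fitted libraries, Benjamini-Hochberg adjusted p below 0.05), with the mapped reads given by the study ("absolute") or the nuclear mC total ("relative") as library size. Relative coverage was fitted with limma 3.58.1 on scaffolds with at least 10 mCs in every library. Alternatives were DESeq2 1.42.0, TMM, other filters and coverage ranges, a replicate block and leaving out libraries. Named scaffolds are, among called scaffolds without overlap and with a mean of at least 20 mCs in the higher stage, the 6 largest relative rises and falls and the 4 largest absolute rises and falls, plus the 4 with the most mCs. Others were chosen after their values were seen. The comparison, lists and tests were chosen with earlier results of these data known. The models were tested on simulated counts. R 4.3.3 and Python 3.11.15 with numpy 2.4.6, pandas 2.3.3 and matplotlib 3.10.9 were used.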

Additional observations from a re-analysis of the deposited data

Results flagged for a closer look

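Besides the nuclear sites, the lists hold organelle cytosines that enter no comparison of the report. They numbered 38253, 38462 and 43470 in FG1, FG2 and FG3 and 16637, 3154 and 3745 in SP1, SP2 and SP3.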

How the results depend on the processing

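The ratio of FG to SP for all nuclear mCs ranged from 3.67 to 6.21 when 1 library at a time was left out, for CHG from 4.196 to 10.1 and for CHH from 4.66 to 12.5. With at least 2 methylated reads the ratios were 9.43 for all mCs, 4.69 for CpG, 11.9 for CHG and 13.5 for CHH. Without SP1 they were 9.68 at 13 to 20 reads, 11.3 at 21 to 50 reads and 12.4 above 50 reads, and 202 for sites with an MLmc of at least 0.5. The difference in the share with at least 2 methylated reads was 0.80 percentage points at 5 to 8 reads, and that in neighbours within 10 bases was 13.7 on the same and 7.83 on the opposite strand.

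Relative to mapped reads, the scaffolds higher in FG numbered 3231 at a coverage of at least 10 reads, 1876 with at least 2 methylated reads and 77 under TMM. The lower ones ranged from 3 to 27 when 1 library was left out and numbered 12 at a coverage of at least 10 reads, 7 with at least 2 methylated reads, 35 for methylated reads, 205 under TMM, 6 with DESeq2, 6 with a minimum of 200 mCs and 45 without a filter. Relative to the nuclear total, the higher scaffolds ranged from 32 to 202 when 1 library was left out and numbered 27 at a coverage of at least 10 reads, 3 at 5 to 8 reads, 28 for methylated reads and 17 at 5 to 16 reads, a range chosen after seeing the data. With at least 2 methylated reads edgeR called 0 of 1915 scaffolds higher and 2 lower, and 220 had an unadjusted p below 0.05 in either direction. The lower scaffolds numbered 101 at a coverage of at least 10 reads and 54 at 5 to 8 reads. Relative coverage gave 113 higher and 541 lower scaffolds without SP1. The relative differences of scaffold23 (-0.43), scaffold146 (-0.30), scaffold392 (-0.12) and scaffold711 (-0.38) reversed at 5 to 8 reads, and that of scaffold11 with at least 2 methylated reads (0.0489). Fewer sites entered each count under a coverage or read limit, and the cause of the changes was otherwise not tested. Of the remaining alternatives for the library measures and counts of scaffolds, 136 stayed within the spread between libraries or within 1.5 times the count.

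With the replicate block, 119 scaffolds were higher and 197 lower relative to the nuclear total, 5124 and 14 relative to mapped reads, and by context 74 and 148 (CpG), 22 and 67 (CHG) and 62 and 138 (CHH). Deviations of same-numbered libraries correlated at 0.22, 0.027 and 0.15 across scaffolds, and those of differently numbered ones at -0.21 to 0.10. FG1 correlated best with SP1 and FG3 with SP3, while FG2 correlated slightly better with SP1 (0.038) than with SP2. Whether a shared number marks a pairing cannot be told from these values.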
